A study of Mus musculus with 22 samples.

Results

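Transcripts of 10 neuropeptide genes were followed in isolated mouse pancreatic islets: Ucn3, Pdyn, Penk, Npy, Gal, Vip, Cartpt, Adcyap1, Nmb and Tac1. They were taken by gene symbol from a table of 57010 genes, and each symbol had 1 row. The list was drawn up with earlier results of the same data known, and Ucn3 and Pdyn were chosen by their measured Het minus WT differences in TPM on each background. Their values are therefore given as a description without a test, and the tests below concern the other genes. All 22 mice were males aged 5.5 weeks, and each library held the islets of 1 animal. The mice were wild type (WT) or heterozygous (Het) for the S64F change in MAFA, which binds DNA and drives mature beta-cell genes such as insulin. On the background labelled C57 there were 5 WT and 6 Het animals, and on the one labelled Mixed also 5 WT and 6 Het animals. The strains behind the Mixed label are not given in the sources used here.

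Neuropeptides are cut from larger precursors by prohormone convertases, stored in dense-core granules and released to act on G-protein-coupled receptors of nearby cells. In the islet some come from the endocrine cells themselves, such as urocortin 3 (Ucn3) from beta cells, which raises somatostatin release from delta cells. Others, among them vasoactive intestinal peptide (Vip), PACAP (Adcyap1), galanin (Gal) and neuropeptide Y (Npy), are known from the autonomic nerve fibres and small ganglia of the pancreas and raise or restrain insulin secretion.

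Levels were measured as TPM, each gene's share of the transcripts of a library, a unit that corrects for transcript length, so that genes can be ranked. Over all 22 mice Ucn3 had the highest mean, 562 TPM, followed by Npy at 201, Pdyn at 44.2 and Vip at 33.7 TPM. Cartpt, Nmb, Tac1, Gal and Penk had means between 2.21 and 6.83 TPM. Adcyap1 had a mean of 0.594 TPM and reached 1 TPM in 3 mice. It failed the filter of at least 1 TPM in at least 5 mice, while the other 9 genes passed.

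The libraries carried the markers of islets. The summed level of 5 beta-cell markers lay between 367700 and 474200 TPM in WT mice and between 247500 and 375300 TPM in Het mice. All 4 alpha-cell and all 4 delta-cell markers were detected in every group, and their sums were higher in Het. The alpha-cell sum lay between 17380 and 52940 TPM (WT) and between 65940 and 109600 TPM (Het) on C57. On Mixed it lay between 14690 and 26440 TPM (WT) and between 61080 and 101800 TPM (Het), so the genotypes did not overlap on either background. The delta-cell sum lay between 5539 and 8889 TPM (WT) and between 10010 and 13920 TPM (Het) on C57, also without overlap. Mafa itself had group means of 441 ± 87.6 TPM (SD, n = 5) in WT against 117 ± 23.2 TPM (n = 6) in Het on C57, and of 598 ± 143 TPM (n = 5) in WT against 152 ± 37.1 TPM (n = 6) in Het on Mixed. Other scalings between libraries moved the median difference over all genes from 0.10 to as little as -0.01 in Mixed and turned the split of called genes there from 5137 higher and 2258 lower to 3582 higher and 3745 lower (median-of-ratios scaling). In C57 the same scaling moved the split from 4422 higher and 1940 lower to 3521 higher and 3063 lower. The called peptide genes kept their direction and call in C57 and in Mixed under the 3 other scalings tried. In bulk islet RNA, fewer cells of a type and less RNA per cell cannot be told apart.

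The first question was how the genotype groups differed in Ucn3, the beta-cell peptide of the list. Ucn3 (ENSMUSG00000044988) in the C57 WT mice was at 632, 826, 755, 692 and 649 TPM. The C57 Het mice ranged from 473 to 625 TPM with a median of 579 TPM. All 6 Het values were below all 5 WT values, although the highest Het and the lowest WT mouse were close. The Mixed WT mice had 862, 791, 686, 572 and 865 TPM. The Mixed Het mice ranged from 179 to 412.5 TPM with a median of 264.5 TPM. Here too the groups did not overlap, and they lay further apart.

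The Het mean of Ucn3 was 79.9% of the WT mean in C57 and 35.9% in Mixed. Het minus WT differences, as log2(TPM + 1), were -0.32 (SE 0.15) in C57 and -1.50 (SE 0.15) in Mixed. The difference between these differences was -1.18 (SE 0.21). In descending order of the group means came Mixed WT, C57 WT, C57 Het and Mixed Het. The WT groups overlapped, and the other neighbours in this order did not. For reference, Het values lay wholly below WT values in 5.04% of the 16756 genes that passed the filter in C57 and in 5.76% in Mixed, and Mixed Het values wholly below C57 Het values in 3.28%. The summed beta-cell markers were lower as well, with medians of 437800 TPM (WT) and 349600 TPM (Het) on C57 and of 426400 TPM (WT) and 319300 TPM (Het) on Mixed. Most of that sum is Ins1 and Ins2, and its members did not all fall. Slc2a2 had a higher mean in Het on C57 (326 TPM in WT, 345 TPM in Het). On Mixed it was lower in Het (352 TPM in WT, 187 TPM in Het), without overlap. Iapp had a higher mean in Het on Mixed (29410 TPM in WT, 35140 TPM in Het) and a slightly lower one on C57 (31420 TPM in WT, 30400 TPM in Het). Nkx6-1 was lower in Het on both backgrounds. The part of the decrease of the sum in the Ucn3 values was not tested.

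Pdyn (ENSMUSG00000027400) encodes prodynorphin, the precursor of the dynorphins, which act mainly on the kappa opioid receptor. Pdyn in the C57 WT mice was at 61.2, 61.8, 48.8, 95.9 and 33.1 TPM. The C57 Het mice ranged from 4.02 to 12.6 TPM with a median of 6.99 TPM. Every C57 Het mouse was thus well below every C57 WT mouse. The Mixed WT mice had 60.0, 29.3, 29.4, 75.3 and 30.5 TPM. The Mixed Het mice ranged from 19.0 to 124 TPM with a median of 69.7 TPM. In Mixed the genotypes overlapped, with 2 Het mice above all WT mice and 1 below them.

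The Het mean of Pdyn was 12.7% of the WT mean in C57 and 149% in Mixed. As log2(TPM + 1), the difference was -2.80 (SE 0.39) in C57 and 0.43 (SE 0.39) in Mixed, and the difference between them was 3.23 (SE 0.55). Between backgrounds, the WT groups differed by -0.45 (SE 0.41, Mixed minus C57) and overlapped. The Het groups differed by 2.78 (SE 0.37) and did not overlap, as in 6.56% of all genes in this direction, with a Mixed Het mean 8.73 times the C57 Het mean. The C57 Het mice thus stood below the mice of the other 3 groups, none of which had less than 19.0 TPM.

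**Figure D1:**
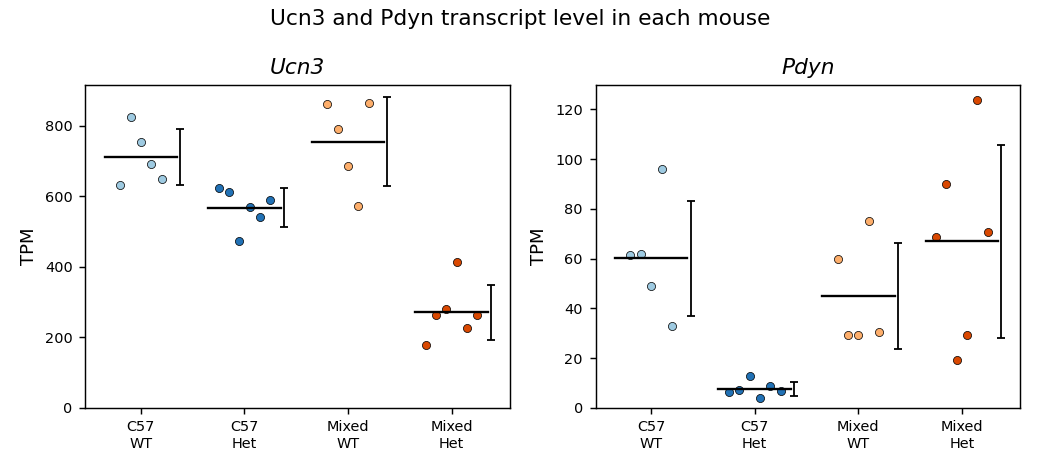
TPM (vertical axis) of Ucn3 and Pdyn in each of the 22 mice (points), by background and genotype, with the group mean (horizontal line) and SD (bar at its right). Ucn3 is lowest in Mixed Het, at 179 to 412.5 TPM, and Pdyn is lowest in C57 Het, at 4.02 to 12.6 TPM.

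The promoter windows of these 2 genes are shown because MAFA is a DNA-binding protein. Sequences come from RefSeq on build GRCm38.p6, not the mm39 build named in the submitters' processing notes, and the table gave windows of 300 bases (250 before and 50 after the annotated start) for 9 of the 10 genes. The core of the MAF recognition element, TGCTGA, was searched on both strands. It occurred in 19.5% of the 32851 windows of the table. Pdyn has 2 annotated starts, and the window of 1 of them holds 1 match, 191 bases before the start. It is printed in capitals below, at chr2:129700094-129700159 on the minus strand. The Ucn3 window holds no match of these letters, and its last 120 bases before the start, at chr13:3945350-3945469 on the minus strand, are given in lower case. A match is a description of letters and not a binding site.
Pdyn: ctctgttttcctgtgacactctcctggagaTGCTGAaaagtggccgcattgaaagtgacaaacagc
Ucn3: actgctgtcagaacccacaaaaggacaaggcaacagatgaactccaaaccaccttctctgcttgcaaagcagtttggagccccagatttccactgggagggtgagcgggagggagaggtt

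The genes whose levels most resembled those of Ucn3 and Pdyn were found among 10000 other genes with a mean of at least 5 TPM. Likeness was the root mean square difference of the centred log2(TPM + 1) values over the 22 mice, with 0 for identical patterns. For Ucn3 the 5 nearest genes were Pcx (0.180), Vstm2l (0.193), Fkbp1b (0.206), Frzb (0.249) and Zdhhc2 (0.271), against 0.655 for a flat pattern. Pcx encodes pyruvate carboxylase, and it had means of 81.5 TPM (WT) and 60.2 TPM (Het) on C57 and of 85.9 TPM (WT) and 35.4 TPM (Het) on Mixed. Fkbp1b, which encodes a protein bound to ryanodine receptors, had means of 206, 145, 239 and 79.8 TPM in the same order.

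No gene came as near to Pdyn. The nearest were Emilin1 (0.924) and Mir3092 (0.996), followed by Mgp, Nkx2-3 and Fcer1g at up to 1.01, against 1.35 for a flat pattern. Emilin1, which encodes a glycoprotein of the extracellular matrix, had means of 59.6 ± 8.84 TPM (WT) and 24.7 ± 6.76 TPM (Het) on C57. On Mixed the means were 80.0 ± 14.1 TPM (WT) and 63.5 ± 24.5 TPM (Het). Mir3092 is a short microRNA gene, whose value from poly(A) libraries is uncertain.

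The next question was whether the peptide genes other than Ucn3 and Pdyn differed between genotypes. Of the 7 that could be tested, 3 passed an adjusted p of 0.05 in C57: Npy and Gal rose and Nmb fell in Het. The background was 38% of all 16756 genes called in C57 (26.4% higher and 11.6% lower). In Mixed, 5 of the 7 passed and all 5 rose: Npy, Gal, Penk, Vip and Tac1. There the background was 44.1% (30.7% higher and 13.5% lower). The median difference of the 7 genes was 0.16 in C57 and 1.30 in Mixed, beside 0.08 and 0.10 over all genes. Gal and Penk each reached 1 TPM in only 4 WT mice and so passed the filter on low values only together with Het mice (12 for Gal and 7 for Penk), and these counts and medians are a description. In C57 the sums of alpha-cell, delta-cell and ductal markers did not overlap between genotypes. The 5 ductal markers summed to between 124.5 and 142.3 TPM (WT) and between 161.7 and 278.2 TPM (Het). Most of that rise was Spp1, with means of 30.8 TPM (WT) and 101 TPM (Het). Krt7 was lower in Het, at 98.2 TPM (WT) and 92.4 TPM (Het), and Krt19, Sox9 and Cftr were higher at low levels. The sum of 7 acinar markers overlapped on both backgrounds, with medians of 257.5 TPM (WT) and 655 TPM (Het) on C57. On Mixed its medians were 396.7 TPM (WT) and 781.4 TPM (Het). With the acinar marker score as a covariate, 18.8% of all genes were called in C57 and 31.2% in Mixed. Npy, Gal and Nmb kept their C57 calls in that fit. The part of the alpha-cell, delta-cell and ductal markers in the C57 results was not tested.

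**Figure D2:**
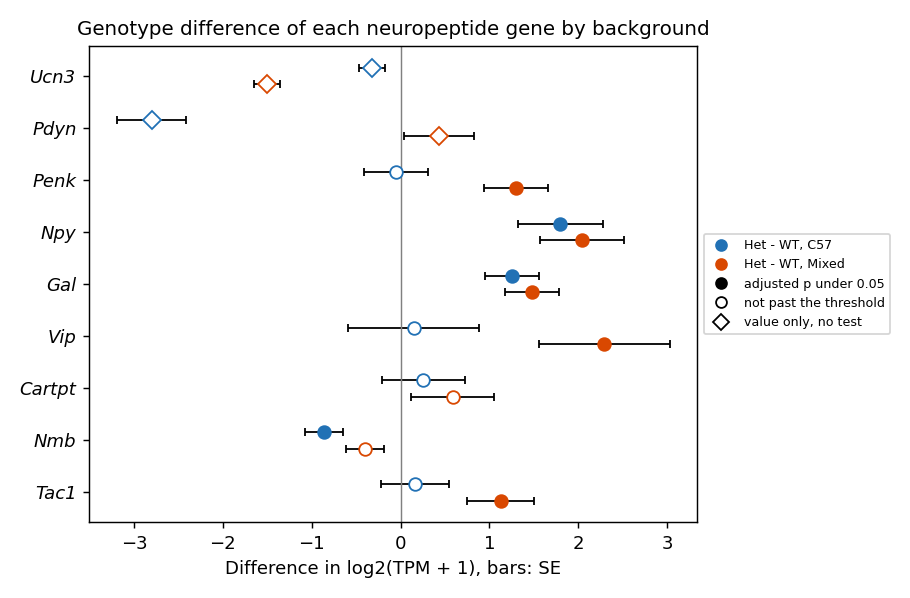
Het minus WT difference in log2(TPM + 1) (horizontal axis, bars are SE) of 9 neuropeptide genes (vertical axis) in C57 (blue) and Mixed (orange). Filled circles passed an adjusted p of 0.05 in limma, open circles did not, and the open diamonds of Ucn3 and Pdyn carry no test. Npy and Gal lie right of 0 and are filled on both backgrounds. Gal and Penk passed the filter on low values only together with Het mice, so their filled circles are a description.

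Npy encodes neuropeptide Y, a peptide of sympathetic nerves that restrains insulin release and is also known from immature beta cells. Npy in the C57 WT mice was at 41.0, 17.5, 27.4, 57.2 and 130 TPM. The C57 Het mice ranged from 107 to 238 TPM with a median of 151 TPM, and 4 of the 6 exceeded every WT mouse. Npy rose by 1.80 on the log2(TPM + 1) scale in C57 (SE 0.48, limma adjusted p = 0.00557, exact permutation p = 0.00649), and 1 C57 WT mouse at 130 TPM kept the groups from separating.

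In Mixed the WT mice had 45.5, 138, 106, 97.1 and 71.9 TPM of Npy. The Mixed Het mice ranged from 126 to 966 TPM with a median of 330 TPM, the widest spread of the 4 groups, and 5 of the 6 exceeded every WT mouse. Npy rose by 2.04 in Mixed (SE 0.48, limma adjusted p = 0.00162, exact permutation p = 0.00649). The mean was 2.88 times higher in Het than in WT in C57 and 5.0 times in Mixed. The interaction, the difference between the genotype differences, was 0.25 (SE 0.68, adjusted p = 0.849).

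Gal encodes galanin, which restrains insulin secretion. Its level was low. Gal in the C57 WT mice was at 0.584, 0.320, 0.998, 0.545 and 1.56 TPM. The C57 Het mice ranged from 1.95 to 6.14 TPM with a median of 3.07 TPM, and all 6 were above every WT mouse. Het values lay wholly above WT values in 15.9% of all genes in C57. Gal rose by 1.25 in C57 (SE 0.30, limma adjusted p = 0.00294, exact permutation p = 0.00216, the smallest that 462 splits allow). Only 4 of the 10 WT mice reached 1 TPM of Gal, against all 12 Het mice, so the gene was tested because of its Het levels. Its p-values for genotype are therefore a description.

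The Mixed WT mice had 0.655, 1.29, 0.740, 1.15 and 1.12 TPM of Gal. The Mixed Het mice ranged from 1.11 to 11.3 TPM with a median of 4.92 TPM, and 5 of the 6 exceeded every WT mouse. Gal rose by 1.48 in Mixed (SE 0.30, limma adjusted p = 0.000535, exact permutation p = 0.0108), and its interaction was 0.22 (SE 0.43, adjusted p = 0.780). The p-values for genotype are a description here too, because Gal passed the filter only together with Het mice.

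Nmb encodes neuromedin B, a bombesin-like peptide. Nmb in the C57 WT mice was at 7.74, 6.24, 4.33, 7.83 and 7.69 TPM. The C57 Het mice ranged from 2.22 to 4.62 TPM with a median of 3.12 TPM, and 5 of the 6 were below every WT mouse. Nmb fell by 0.86 in C57 (SE 0.21, limma adjusted p = 0.00351, exact permutation p = 0.00649).

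In Mixed the WT mice had 5.16, 6.22, 12.1, 10.7 and 4.39 TPM of Nmb, and the Het mice ranged from 3.81 to 6.83 TPM with a median of 5.16 TPM. All 6 Het mice were below the WT mean, but the groups overlapped. The difference of -0.40 (SE 0.21) did not pass (limma adjusted p = 0.131; without Mixed WT replicate 5 it was -0.55, adjusted p = 0.0396), nor did the interaction of 0.46 (SE 0.30, adjusted p = 0.352).

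Penk encodes proenkephalin, the precursor of the enkephalins, which act on delta and mu opioid receptors. The C57 WT mice had 0.594, 0.745, 0.735, 1.52 and 2.26 TPM, and the C57 Het mice ranged from 0.539 to 2.54 TPM with a median of 0.871 TPM. These groups overlapped, with a difference of -0.05 (SE 0.36, limma adjusted p = 0.926). The Mixed WT mice had 0.413, 0.790, 0.833, 1.84 and 1.67 TPM, and the Mixed Het mice ranged from 0.852 to 12.8 TPM with a median of 4.44 TPM. In Mixed, 5 of the 6 Het mice exceeded every WT mouse, and Penk rose by 1.30 (SE 0.36, limma adjusted p = 0.00618, exact permutation p = 0.0216). Penk reached 1 TPM in only 4 WT mice and in 7 Het mice. It passed the filter only together with Het mice, so its p-values for genotype are a description. The interaction of 1.35 (SE 0.51) did not pass (adjusted p = 0.102), and without Mixed Het replicate 3 it did (1.64, adjusted p = 0.0246).

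Markers of several other cell types also differed between Mixed WT and Mixed Het mice, those of mesenchymal cells among them. The summed level of 5 such markers, all detected in every group, lay between 22.9 and 39.7 TPM in Mixed WT and between 40.3 and 213 TPM in Mixed Het. The Mixed Het mouse with the most Penk (12.8 TPM) also had the highest sum (213 TPM), and the 1 with the least Penk (0.852 TPM) had the lowest (40.3 TPM). In C57 the sums lay between 23.4 and 62.6 TPM in WT and between 26.7 and 42.0 TPM in Het. Among genes with a mean of at least 5 TPM, the 5 nearest to Penk by the same likeness were Bgn (0.364), Col1a2 (0.383), Col3a1 (0.386), Cygb (0.395) and Col6a1 (0.397). Col1a2, Col3a1 and Col6a1 encode collagen chains. This look-up for Penk was added after its values were seen.

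Ductal and immune markers separated the same Mixed groups. The ductal sum lay between 110.5 and 165.1 TPM (WT) and between 169 and 536.6 TPM (Het), and the sum of 6 immune markers between 15.5 and 21.9 TPM (WT) and between 26.3 and 42.3 TPM (Het). The sum of 5 Schwann-cell markers overlapped, with medians of 18.1 TPM (WT) and 27.9 TPM (Het). The part of the ductal, immune and Schwann-cell markers in the Mixed results was not tested.

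With the mesenchymal marker score as a covariate, a fit also chosen after seeing the data, the Mixed difference of Penk was -0.15 (limma adjusted p = 0.747). In that fit 0 of the 7 peptide genes passed in Mixed, and Npy was at 1.03 (adjusted p = 0.229) and Gal at 0.81 (adjusted p = 0.133). It called 27.1% of all genes in Mixed. The score is the mean log2(TPM + 1) of the 4 markers that passed the filter, not the sum. The sums of Mixed WT and Mixed Het mice did not overlap, which need not hold for the score. Marker level and genotype largely went together in Mixed, so this fit does not separate them. In C57, where the sums overlapped, the same fit gave 1.85 for Npy (adjusted p = 0.00265), 1.29 for Gal (adjusted p = 0.0013) and -0.85 for Nmb (adjusted p = 0.00432).

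Vip, Cartpt, Adcyap1 and Tac1 varied widely between mice of the same group. Vip and PACAP, the product of Adcyap1, are related peptides of pancreatic nerves that share receptors and raise insulin secretion. Cartpt encodes the CART peptide, and Tac1 the precursor of substance P and neurokinin A. The highest mouse of a group had between 8.15 and 41.4 times the Vip level of the lowest, against 1.31 to 2.30 times for Ucn3.

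The same mice tended to be high in all 4 genes. In C57 WT, replicate 5 was highest in Vip (84.3 TPM), Cartpt (9.82 TPM), Tac1 (8.88 TPM) and Adcyap1 (2.21 TPM). In C57 Het, replicate 2 was highest in Vip (106 TPM), Cartpt (20.0 TPM), Tac1 (8.62 TPM) and Adcyap1 (2.07 TPM). In Mixed Het, replicate 4 was highest in Vip (120 TPM), Cartpt (16.7 TPM), Tac1 (13.9 TPM) and Adcyap1 (1.66 TPM). In Mixed WT the highest mouse differed, being replicate 5 for Vip (19.9 TPM), replicate 4 for Cartpt (9.39 TPM) and Tac1 (3.05 TPM), and replicate 2 for Adcyap1 (0.623 TPM).

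Markers of autonomic neurons varied in the same mice. All 9 markers of the list were detected in every group, and none was at 0 throughout a group. Prph, which encodes peripherin, a filament protein of peripheral neurons, was at 33.0 TPM in C57 WT replicate 5, 24.2 TPM in C57 Het replicate 2 and 27.9 TPM in Mixed Het replicate 4, the highest mouse of each of these groups. The highest mouse in the summed neuron markers was also the highest in Adcyap1 in 4 of 4 groups, and in Vip, Cartpt, Tac1, Npy and Gal in 3 of 4 groups each. This was so in 1 group each for Ucn3 and Penk and in 0 groups for Pdyn and Nmb. By likeness, Prph was the nearest gene to Vip (0.718, against 1.56 for a flat pattern), ahead of Sncg (0.810) and Grp (0.828), a look-up added after the values were seen. The summed markers overlapped between the groups, with ranges of 24.4 to 72.7 TPM in C57 WT, 23.8 to 56.9 in C57 Het, 18.1 to 40.6 in Mixed WT and 28.7 to 60.7 TPM in Mixed Het.

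The Mixed WT mice had 0.934, 16.1, 0.480, 7.55 and 19.9 TPM of Vip, and the Mixed Het mice ranged from 14.1 to 120 TPM with a median of 19.0 TPM. All 6 Het mice were above the WT mean, and 2 were above every WT mouse. Vip rose by 2.29 in Mixed (SE 0.74, limma adjusted p = 0.0151, exact permutation p = 0.0368). The call was lost without Mixed WT replicate 1 (1.88, adjusted p = 0.0511) or replicate 3 (1.78, adjusted p = 0.0603), the 2 mice below 1 TPM. Prph was lowest in the same 2 mice, at 0.517 and 0.836 TPM.

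The C57 WT mice had 24.4, 10.3, 21.0, 48.0 and 84.3 TPM of Vip, and the C57 Het mice ranged from 11.7 to 106 TPM with a median of 32.9 TPM. The groups overlapped widely, and the difference of 0.15 (SE 0.74) did not pass (limma adjusted p = 0.895). The interaction of 2.15 (SE 1.04) did not pass either (adjusted p = 0.196).

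Tac1 in Mixed was at 1.0, 2.37, 1.67, 3.05 and 2.32 TPM in the WT mice and between 3.08 and 13.9 TPM in the Het mice, with a median of 4.72 TPM. All 6 Het mice were above every WT mouse, by a narrow margin, as in 17.9% of all genes in Mixed. Tac1 rose by 1.12 in Mixed (SE 0.38, limma adjusted p = 0.0205, exact permutation p = 0.00866). The call was lost without Mixed WT replicate 1 (0.98, adjusted p = 0.0562) or Mixed Het replicate 4 (0.89, adjusted p = 0.0558). It was also lost with the acinar marker score as a covariate (1.12, adjusted p = 0.0649), a fit that called 31.2% of all genes in Mixed.

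In C57 the WT mice had 2.57, 1.11, 2.58, 4.28 and 8.88 TPM of Tac1, and the Het mice ranged from 1.58 to 8.62 TPM with a median of 3.86 TPM. The difference of 0.16 (SE 0.38) did not pass (limma adjusted p = 0.769). With the autonomic neuron score as a covariate, a fit chosen after seeing the data, the Mixed difference was 0.74 for Vip (adjusted p = 0.0679), 0.36 for Tac1 (adjusted p = 0.175) and 0.87 for Penk (adjusted p = 0.0557). In the same fit Npy remained called in Mixed at 1.31 (adjusted p = 0.0143) and Gal at 1.10 (adjusted p = 0.00564).

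Cartpt did not pass in either background. The C57 WT mice ranged from 1.97 to 9.82 TPM and the C57 Het mice from 2.06 to 20.0 TPM, with a difference of 0.26 (SE 0.47, limma adjusted p = 0.699). The Mixed WT mice ranged from 1.84 to 9.39 TPM and the Mixed Het mice from 3.80 to 16.7 TPM, with a difference of 0.59 (SE 0.47, adjusted p = 0.322). Adcyap1 lay between 0.0618 and 2.21 TPM in all mice, with group medians of 0.365 TPM (WT) and 0.561 TPM (Het) on C57 and of 0.126 TPM (WT) and 0.374 TPM (Het) on Mixed. Its exact permutation p for genotype was 0.870 in C57 and 0.249 in Mixed.

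**Figure D3:**
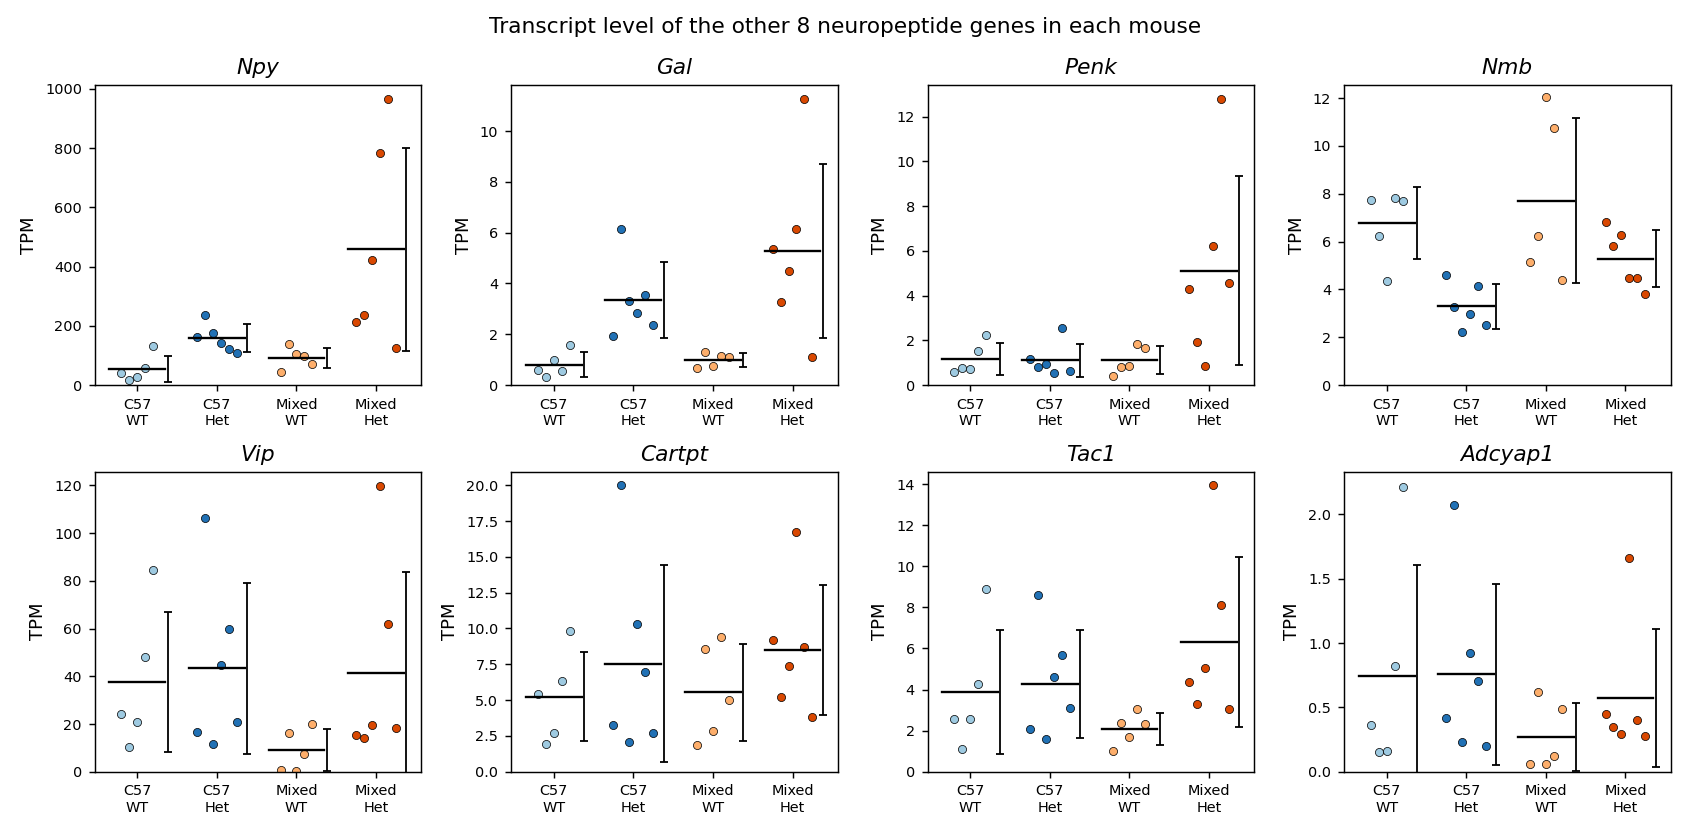
TPM (vertical axes, one scale per gene) of the other 8 neuropeptide genes in each mouse (points), by background and genotype, with the group mean (line) and SD (bar, drawn only above 0). The upper row holds Npy, Gal, Penk and Nmb, and the lower row Vip, Cartpt, Tac1 and Adcyap1, in which 1 mouse stands highest in each of C57 WT, C57 Het and Mixed Het.

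**Figure D4:**
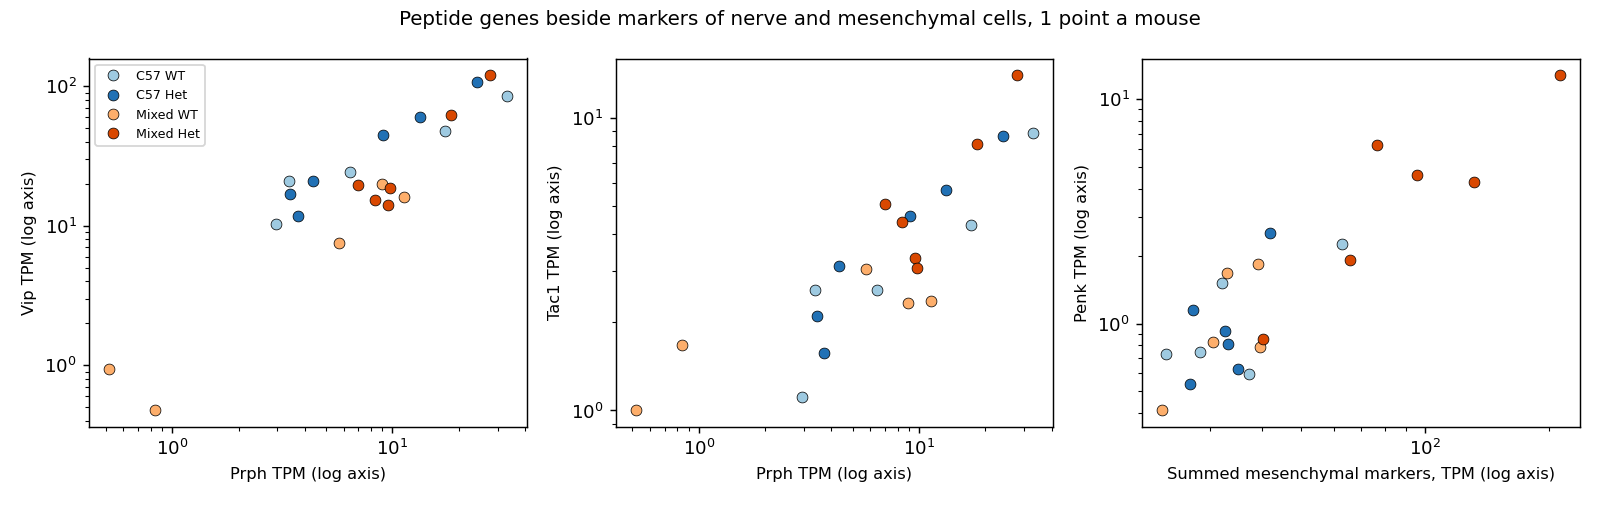
Vip and Tac1 against Prph, and Penk against the summed mesenchymal markers, all in TPM on log axes, with 1 point for each of the 22 mice coloured by group. The 2 Mixed WT mice with under 1 TPM of Vip are those with under 1 TPM of Prph, and the mouse with the most Penk (12.8 TPM) has the highest mesenchymal sum (213 TPM).

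Promoter windows of this group are shown because Vip, Cartpt and Adcyap1 share a run of letters. The core of the cAMP response element, TGACGTC, was searched on both strands and occurred in 3.21% of the 32851 windows of RefSeq (GRCm38.p6). Among the 9 peptide genes with a window it was found in these 3, and in neither Tac1 nor Npy, Gal, Nmb, Ucn3 or Pdyn. The stretches lie at chr10:5639109-5639175 on the plus strand for Vip, chr13:99900759-99900825 on the minus strand for Cartpt and chr17:93198896-93198962 on the plus strand for Adcyap1, and the capitals mark the match. It begins 79, 112 and 91 bases before the start in that order. In Cartpt a match on the other strand overlaps it by all but 1 base. In Adcyap1, which has 2 annotated starts that both take in this match, the letters TGCTGA overlap it.
Vip: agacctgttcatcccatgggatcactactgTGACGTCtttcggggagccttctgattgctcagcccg
Cartpt: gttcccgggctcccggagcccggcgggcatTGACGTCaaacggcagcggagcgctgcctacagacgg
Adcyap1: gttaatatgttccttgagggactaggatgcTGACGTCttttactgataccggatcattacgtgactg

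The design also asks whether genotype acted differently on the backgrounds, and how the backgrounds differed within a genotype. The interaction passed in 0 of the 7 tested peptide genes by limma, against a background of 7.36%, and 1 of the 7 (Penk) had an unadjusted p under 0.05. Between WT mice of the backgrounds 0 of the 7 passed (background 11.3%), and 1 had an unadjusted p under 0.05. That gene was Vip, which was lower in Mixed WT by 2.31 on the log2(TPM + 1) scale (SE 0.77, limma adjusted p = 0.0545, exact permutation p = 0.0397). All 5 Mixed WT mice were below the C57 WT mean of 37.6 TPM, and 3 were below every C57 WT mouse. Vip passed that comparison under other scalings, for example at -2.34 with median-of-ratios scaling (adjusted p = 0.0466).

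Between Het mice of the backgrounds 1 of the 7 passed (background 20.5%, of which 13.3% higher in Mixed Het). Penk rose by 1.32 in Mixed Het against C57 Het (SE 0.35, limma adjusted p = 0.00944, exact permutation p = 0.0216), with 4 of 6 Mixed Het mice above every C57 Het mouse. With the mesenchymal score as a covariate this difference was -0.09 (adjusted p = 0.951). Npy was higher by 1.22 (SE 0.46, adjusted p = 0.0618) and Nmb by 0.56 (SE 0.20, adjusted p = 0.0573), and neither passed in the fit of all groups. Both passed with sample weights (1.25, adjusted p = 0.0155, and 0.45, adjusted p = 0.0467), and Nmb also in the fit of the Het mice alone (0.56, adjusted p = 0.0199).

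Receptors of these peptides were followed as a list of 17 genes, of which 8 passed the filter. The list also holds Crhr1, the receptor of the related corticotropin-releasing hormone. Those for opioid peptides were nearly silent, since Oprk1, Oprd1 and Oprm1 had group means of at most 0.409 TPM. Nmbr, Tacr1, Galr2, Npy2r, Npy4r and Npy5r also failed the filter. In C57, 1 of the 8 passed (higher in Het), and in Mixed 3 of the 8 (2 higher and 1 lower), beside 38% and 44.1% of all genes. The median difference of the 8 was 0.01 in C57 and 0.08 in Mixed. The interaction passed in 2 of the 8, the comparison of WT mice between backgrounds in 2 and that of Het mice in 1, against backgrounds of 7.36%, 11.3% and 20.5%. Crhr1 was among the genes called for the interaction and between WT mice.

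Crhr2, the receptor that urocortin 3 prefers, had means of 0.875 ± 0.300 TPM (WT) and 1.30 ± 0.189 TPM (Het) on C57, a difference of 0.30 (SE 0.12) that did not pass (limma adjusted p = 0.0524) but did with quantile normalization (0.36, adjusted p = 0.0108). On Mixed the means were 1.27 ± 0.286 TPM (WT) and 2.72 ± 0.547 TPM (Het), and it rose by 0.71 (SE 0.12, adjusted p = 8.26e-05). All 6 Mixed Het mice were above every Mixed WT mouse, as in 17.9% of all genes. Crhr2 is known in mouse islets from delta cells, whose 4 markers summed to between 7647 and 15970 TPM in Mixed WT and between 14670 and 32010 TPM in Mixed Het. The part of the delta-cell markers in this result was not tested.

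Crhr1, the receptor of corticotropin-releasing hormone, had an interaction of -1.07 (SE 0.32, limma adjusted p = 0.0456), a call that was lost in 17 of the 22 fits that left out 1 mouse (largest adjusted p = 0.0789). On C57 the means were 2.74 ± 0.557 TPM (WT) and 4.39 ± 0.575 TPM (Het), a difference of 0.53 (adjusted p = 0.0697). All 6 C57 Het mice were above every C57 WT mouse, as in 15.9% of all genes. On Mixed the means were 7.02 ± 2.82 TPM (WT) and 4.70 ± 2.32 TPM (Het), a difference of -0.54 (adjusted p = 0.0589). The C57 difference passed in a fit of the C57 mice alone (adjusted p = 0.0050) and the Mixed one with median-of-ratios scaling (-0.65, adjusted p = 0.0245). Between WT mice, Crhr1 rose by 1.05 in Mixed (SE 0.24, adjusted p = 0.00588).

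Galr1, a galanin receptor, had means of 23.0 ± 3.83 TPM (WT) and 19.9 ± 2.90 TPM (Het) on C57, a difference of -0.20 (limma adjusted p = 0.143) that passed under median-of-ratios scaling (-0.29, adjusted p = 0.0306). In Mixed it fell by 0.84 (SE 0.11, adjusted p = 2.16e-06), from 30.3 ± 2.86 to 16.5 ± 1.40 TPM, with all 6 Het mice below every WT mouse, as in 5.76% of all genes. Its interaction of -0.64 passed (adjusted p = 0.0146). Galr3 did not pass in C57 (0.06, adjusted p = 0.801) or Mixed (-0.37, adjusted p = 0.0769), and median-of-ratios scaling gave -0.03 in C57 and a called -0.50 in Mixed (adjusted p = 0.0211).

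Vipr1, a receptor shared by VIP and PACAP, had the highest level of the list. It rose by 0.37 in C57 (SE 0.13, limma adjusted p = 0.0241), from 41.7 ± 7.63 to 53.7 ± 6.48 TPM, with 5 of 6 Het mice above every WT mouse. That call was lost without C57 WT replicate 5 (0.24, adjusted p = 0.101) or C57 Het replicate 5 (0.33, adjusted p = 0.0569) and with quantile normalization (0.25, adjusted p = 0.0506). In Mixed the means were 44.6 ± 6.21 and 54.1 ± 7.75 TPM, and the difference of 0.27 (SE 0.13) did not pass (adjusted p = 0.0835). Adcyap1r1, the receptor specific to PACAP, rose by 0.72 in Mixed (SE 0.24, adjusted p = 0.0177), from 1.15 ± 0.413 to 2.60 ± 0.997 TPM, and its C57 difference was -0.04 (adjusted p = 0.900). With the acinar or the neuron score as a covariate the Mixed call was lost (0.73, adjusted p = 0.0564, and 0.23, adjusted p = 0.123). Vipr2 and Npy1r did not pass on either background.

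**Figure D5:**
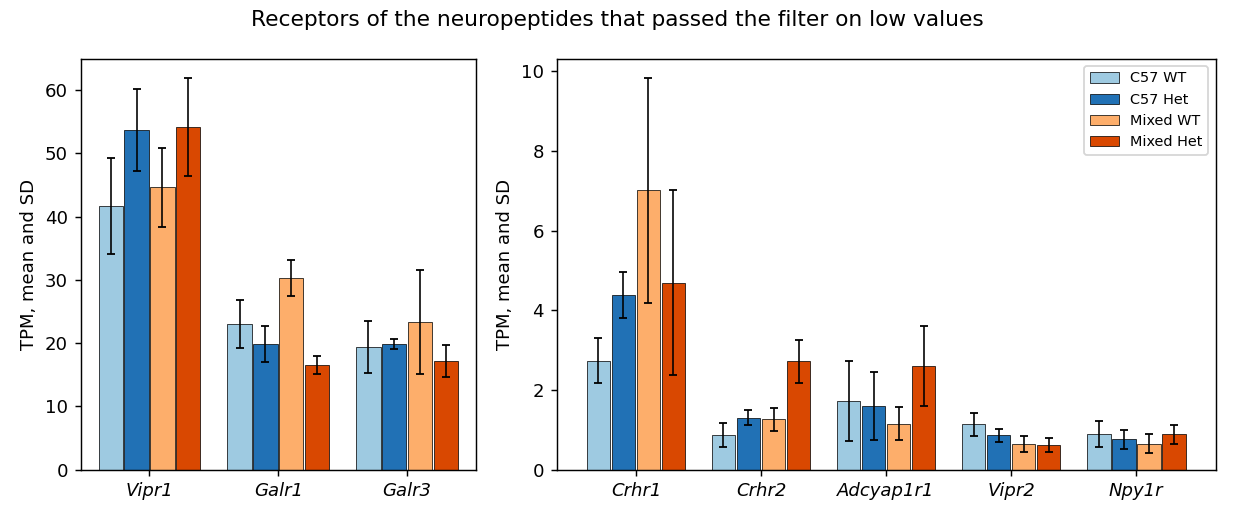
Mean TPM (vertical axes, bars are SD, n = 5 or 6 mice) of the 8 receptor genes that passed the filter, by group, with the 3 more abundant genes on the left and the other 5 on the right. Galr1 is lowest in Mixed Het (16.5 TPM) and Crhr2 is highest there (2.72 TPM).

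Paralogs of the peptides, from the same families, were read as a list of 15, of which 6 passed the filter. In C57, 1 was higher in Het (Gcg) and 1 lower (Pomc), where 26.4% and 11.6% of all genes were called. In Mixed, Gcg, Pyy and Grp were higher, beside 30.7% of all genes. Pnoc was called higher too, but it is left out of that comparison because of how it passed the filter. Pnoc encodes prepronociceptin, an opioid-family precursor like those of Pdyn and Penk. It reached 1 TPM in all 6 Mixed Het mice and in 2 other mice, so it passed the filter only through Mixed Het and had to differ there. Its means were 0.386 ± 0.0828 TPM (WT) and 2.13 ± 0.721 TPM (Het) on Mixed, which are given as a description. Grp, which encodes the bombesin-like gastrin-releasing peptide related to neuromedin B, rose by 1.93 in Mixed (SE 0.57, adjusted p = 0.00926), from 1.04 ± 1.10 to 9.88 ± 11.8 TPM, and with the neuron score as a covariate it did not pass (0.90, adjusted p = 0.0794). Pomc, the precursor of beta-endorphin, fell by 0.29 in C57 (SE 0.10, adjusted p = 0.0286), a call lost in 5 of the 22 fits that left out 1 mouse. The urocortin relatives Crh, Ucn and Ucn2 failed the filter.

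Genes for the processing of peptide precursors, enzymes and the helper or inhibitor proteins Scg5 and Pcsk1n, were read as a list of 6, all of which passed the filter. In C57, 4 passed and in Mixed 5, and all were higher in Het, beside 26.4% and 30.7% of all genes. The alpha-cell sums were higher in Het without overlap on both backgrounds, as given above, and the delta-cell median went from 7227 to 11410 TPM on C57 and from 9186 to 27530 TPM on Mixed. The part of these markers in the processing genes was not tested. Pcsk1, a convertase that acts early in the granule, had means of 231 ± 50.8 TPM (WT) and 579 ± 118 TPM (Het) on C57. Pam, which amidates the ends of peptides such as Npy, Vip and galanin, had means of 91.8 ± 14.5 TPM (WT) and 176 ± 13.9 TPM (Het) on C57, and rose by 0.94 (SE 0.12, limma adjusted p = 3.86e-06). In Mixed it rose by 1.27 (SE 0.12, adjusted p = 3.51e-08), from 80.8 ± 11.3 to 196 ± 30.9 TPM. Pcsk1n, an inhibitor of Pcsk1, rose in Mixed by 0.65 (SE 0.11, adjusted p = 6.49e-05). Its C57 difference of 0.14 did not pass (adjusted p = 0.346), and the interaction of 0.52 did (adjusted p = 0.0449), though not in 14 of the 22 fits that left out 1 mouse.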

How the data were processed

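RNA of isolated islets was poly(A)-selected and sequenced, per the labels' protocols. The authors deposited 1 table of TPM with 57010 genes and 22 value columns, each summing to 1000000 and matched to its sample by library name. STAR 2.7.10b, MultiQC 1.7 and mm39 are named per the submitters' processing notes, and the counting tool and annotation are not given in the sources used here. TPM keeps no depth, so read depth is unknown and no detection floor was computed. TPM is also relative, so a fall in abundant transcripts raises the others.

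The analysis used log2(TPM + 1), a scale on which changes of low genes come out too small. The 16756 genes with at least 1 TPM in at least 5 mice were fitted with limma 3.58.1 in R 4.3.3 (4 group means, eBayes with trend), and p-values were Benjamini-Hochberg adjusted over all of them (threshold 0.05). Two-sided exact permutation tests used every split of a contrast's mice. The fit was tested on simulated data, where it called 97.0% of 200 genes shifted by 1.5 log2 units in the C57 contrast among 16756. The simulated noise was independent between genes, so shifts shared by many genes of a mouse were not part of it. Replicate numbers follow accession order. Library numbers run through the groups in turn, so library order and group cannot be told apart. Each library came from its own mouse.

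The members, the lists and the naming rule (all members, the list genes, Mafa, and the 5 genes most like Ucn3 and Pdyn) were chosen with earlier results of these data known. The likeness look-ups for Penk and Vip and the neuron and mesenchymal covariates were added after seeing the data.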

Additional observations from a re-analysis of the deposited data

Results flagged for a closer look

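In a group of 4 to 10 mice a value was singled out when its gap to the next was large for the group's range (Dixon's 95% limit, which chance exceeds in about 1 in 20 groups). Of 40 groups checked (10 genes in 4 groups), 2 met this. Penk in C57 Het was highest in replicate 5, at 2.54 TPM against 1.15 TPM in the next mouse. Adcyap1 in Mixed Het was highest in replicate 4, at 1.66 TPM against 0.447 TPM in the next mouse, and that library was also highest of its group in Vip, Cartpt and Tac1.

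Limma's interaction test called 0 of the 7 tested peptide genes and 2 of the 8 receptors, Crhr1 (-1.07) and Galr1 (-0.64). It also called 1 of the 6 processing genes, Pcsk1n (0.52), and 1 of the 6 tested paralogs, Pnoc (1.08). The share over all genes was 7.36%. Pnoc passed the filter on low values only through Mixed Het, where it is high, so its value is a description, and with the mesenchymal score as a covariate it was 0.60 (adjusted p = 0.361). For Pnoc and Pcsk1n the Het values were higher in Mixed, and Galr1 was lower there. Crhr1 had differences of opposite sign that did not pass by themselves. The interaction calls of Crhr1 and Pcsk1n were lost in 17 and 14 of the 22 fits that left out 1 mouse.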

How the results depend on the processing

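TPM keeps no depth, so low genes such as Adcyap1, Gal and Penk carry an unknown counting error, and with 5 or 6 mice a group 1 mouse can decide a call. Of the values of single genes with a test, 468 of 547 kept their direction and side of the threshold under the settings other than leaving out a mouse, and 964 of 1056 when 1 mouse was left out. The neuron and mesenchymal covariates were chosen after seeing the data, and the cause of each change below was not tested.

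With the mesenchymal score as a covariate Ucn3 was at -1.15 in Mixed, -0.81 for the interaction and -0.76 between Het mice of the backgrounds, and Pdyn at -0.32, 2.44 and 2.05. The same fit gave Penk 0.019 in C57, -0.146 in Mixed, -0.166 for the interaction and -0.087 between Het mice, interactions of -0.81 for Npy and -0.47 for Gal, and Mixed differences of -0.183 for Cartpt and -0.043 for Adcyap1r1. With the neuron score, Penk was at 0.017 and Adcyap1r1 at 0.032 in C57, Cartpt at -0.33 in Mixed, and the interactions of Npy and Gal at -0.60 and -0.21. With the acinar score, C57 gave 0.081 for Penk and -0.041 for Pnoc. Sample weights gave 0.08 for Penk, -0.073 for Galr3 and 0.13 for Adcyap1r1 in C57 and an interaction of -0.17 for Npy. Galr3 in C57 was at -0.028 with median-of-ratios scaling, -0.059 with quantile normalization and -0.046 with the most abundant genes left out of the total, and Adcyap1r1 at 0.005 with quantile normalization. Where these signs turned, neither value passed the test, except for Penk and Adcyap1r1 in Mixed and Penk between Het mice. Leaving out 1 mouse turned the sign of some uncalled values, which ranged in C57 from -0.215 to 0.108 for Penk, -0.21 to 0.518 for Vip, -0.072 to 0.493 for Cartpt, -0.091 to 0.466 for Tac1, -0.031 to 0.141 for Galr3, -0.184 to 0.136 for Adcyap1r1 and -0.032 to 0.194 for Pnoc, and for the interaction from -0.147 to 0.56 for Npy and -0.009 to 0.499 for Gal.

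Of the 7 peptide genes, the number called in Mixed (5) was 3 at an adjusted p of 0.01, 2 among genes with a mean of at least 5 TPM (which leaves out Gal and Penk), 2 with the neuron score and 0 with the mesenchymal score. Between WT mice (0) it was 1 with a pseudocount of 0.1 and with each other scaling, and 2 with the neuron score. Between Het mice (1) it was 2 with a pseudocount of 0.1, with the Het mice alone and with the neuron score, 3 with sample weights, and 0 with a mean of at least 5 TPM or the mesenchymal score. Leaving out 1 mouse gave 3 to 6 in Mixed, 0 to 1 for the interaction and between WT mice, 1 to 3 between Het mice, and 3 in C57 each time.

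Of the receptors, the number called in C57 (1) was 0 at an adjusted p of 0.01, 4 with sample weights, and 2 with a pseudocount of 0.1, median-of-ratios scaling, quantile normalization, the C57 mice alone, no variance trend or the mesenchymal score. In Mixed (3) it was 5 without a filter and with each other scaling, and 1 with a mean of at least 5 TPM. For the interaction (2) it was 0 at an adjusted p of 0.01 and with the mesenchymal score, and 1 without a filter, with a mean of at least 5 TPM or with the neuron score. Between WT mice (2) it was 1 at an adjusted p of 0.01, with a mean of at least 5 TPM, with the WT mice alone or with the acinar score. Between Het mice (1) it was 0 with a mean of at least 5 TPM or the mesenchymal score, 2 with each other scaling and 3 with sample weights. Leaving out 1 mouse gave 0 to 2 in C57 and 1 to 2 for the interaction, between WT mice and between Het mice.

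No paired analysis was possible because the replicate numbers follow accession order and pair no mice.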
